A study of Mus musculus with 96 samples.

Results

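SOX2 binding before doxycycline (Dox) was compared with SOX2 binding after 8 h of Dox, the time at which induced GATA6 was first sampled, in mouse embryonic stem (ES) cells. The comparison covered all 42403 regions that GATA6 bound at some time in the series, so that no region was chosen by its SOX2 value, and it rests on 5 of the 96 labelled libraries. Of these, 3 carry the SOX2 label before Dox and 2 the SOX2 label at 8 h. All 5 are ChIP-seq libraries, made from the DNA that an antibody against SOX2 pulled down out of fixed chromatin. The cells were KH2 ES cells of a C57BL/6 x 129/Sv background, which carry a Gata6 expression cassette that Dox switches on. The untreated cells carry the same cassette and received no Dox, so that Dox itself and the GATA6 it induces cannot be told apart. Both groups were grown with serum and LIF on mouse embryonic fibroblast feeders, which were depleted by adsorption to plastic before fixation with DSG and formaldehyde. The study's methods name 2 clones of the inducible line, and the labels do not say which clone gave which library.

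SOX2 is an HMG-box protein that maintains pluripotency in ES cells, where it commonly binds together with OCT4 on composite OCT:SOX motifs. GATA6 is the zinc finger protein that drives primitive endoderm (PrE), the first endoderm of the embryo, and it recognizes GATAA-like sequences. In the embryo, PrE and the pluripotent epiblast arise from cells that initially express factors of both fates, and cells that take the PrE fate later lose SOX2. ChIP-seq measures how much DNA of a region is recovered with the antibody, and fewer cells with SOX2 on a site cannot be told apart from less SOX2 on the same site in each cell.

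The sequences in question are short stretches of regulatory DNA. The following windows of mm10, written on the plus strand, are shown because they lie in 5 of the 6 regions with the largest rises of SOX2 described further on, and in a region beside Pdgfra and an intron of Gata4, both PrE genes. Capitals mark the best match to the GATA6 motif in the region, as deposited from the authors' motif scan.
Nearest to Dmac1, chr4:75844932-75845052: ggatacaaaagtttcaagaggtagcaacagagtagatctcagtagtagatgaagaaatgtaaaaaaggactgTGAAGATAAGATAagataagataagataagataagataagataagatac
Nearest to Gfpt2, chr11:49781953-49782073: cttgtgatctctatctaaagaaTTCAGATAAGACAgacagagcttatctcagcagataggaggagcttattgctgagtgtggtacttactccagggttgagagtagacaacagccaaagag
Intron of Cpn1, chr19:43982144-43982264: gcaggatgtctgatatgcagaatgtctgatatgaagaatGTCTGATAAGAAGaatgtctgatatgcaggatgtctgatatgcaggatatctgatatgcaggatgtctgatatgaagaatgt
Nearest to Gpc4, chrX:52177188-52177310: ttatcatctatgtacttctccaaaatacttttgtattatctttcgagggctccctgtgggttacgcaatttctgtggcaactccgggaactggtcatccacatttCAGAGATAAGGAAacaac
Nearest to Zfand5, chr19:21337410-21337558: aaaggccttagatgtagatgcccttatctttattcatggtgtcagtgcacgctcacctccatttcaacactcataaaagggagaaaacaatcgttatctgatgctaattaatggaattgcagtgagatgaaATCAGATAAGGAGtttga
Nearest to Pdgfra, chr5:75146607-75146727: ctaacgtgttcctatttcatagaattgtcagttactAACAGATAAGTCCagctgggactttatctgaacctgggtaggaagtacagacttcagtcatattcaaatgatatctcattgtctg
Intron of Gata4, chr14:63231262-63231382: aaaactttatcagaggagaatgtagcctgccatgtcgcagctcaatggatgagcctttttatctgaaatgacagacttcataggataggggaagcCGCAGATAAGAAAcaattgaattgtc
In the Dmac1 window the capitals open a run of direct repeats of GATAA, and in the Cpn1 window the match lies in a short tandem repeat. Windows were centered on the GATA6 summit, and the Zfand5 window was widened to reach a match beyond the usual width. The region left out, in an intron of Adora1, has its best GATA6 match still farther from its GATA6 summit. Of the regions with the largest falls, 4 of the 6 have no GATA6 match in the deposited scan, against 10.3% of all regions. For 2 of these 4 the window around the GATA6 summit is given in lower case only.
Intron of Myo1f, chr17:33600037-33600157: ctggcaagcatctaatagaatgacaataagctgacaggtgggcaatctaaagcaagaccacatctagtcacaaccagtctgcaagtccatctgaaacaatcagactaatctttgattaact
Nearest to Tll1, chr8:64366678-64366798: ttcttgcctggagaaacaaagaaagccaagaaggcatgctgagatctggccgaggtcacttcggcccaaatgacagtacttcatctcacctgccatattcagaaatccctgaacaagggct
The best OCT:SOX matches, given in the orientation of the motif, also span a range of scores. The Cpn1 region holds the first of the following matches with a score of 14.5, a falling region in an intron of Gm11077 holds the second with a score of 15.6, and the region 1959 bp from the Pou5f1 start holds the third with a score of 13.6.
Intron of Cpn1, chr19:43982088-43982102, plus strand: AATTGTAATGCAGAT
Intron of Gm11077, chr6:140730989-140731003, minus strand: CTTTCAAATGCAAAA
Nearest to Pou5f1, chr17:35504049-35504063, minus strand: CTTTGTTATGCATCT

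Values are in RPM, the reads of a region scaled to the depth of its library, and the deposited column for SOX2 before Dox turned out to hold more than its name says. Every value of that column was the mean of 6 libraries, namely 2 from before Dox together with both libraries of 8 h and both of 16 h. When this was undone, the 2 libraries before Dox came out as whole reads divided by depths of 22.4 and 16.9 M reads. The 2 libraries at 8 h had depths of 15.3 and 10.2 M reads. The deposited column could be rebuilt from the 6 libraries in 100% of regions, with a largest relative error of 4.9e-07. As deposited, the columns gave a median log2 change of 0.07, and 5 regions lay above 2-fold and 52 below. With the libraries of 8 h and 16 h taken out of the value before Dox, the median log2 change was 0.39. All values below are of the separated libraries. In 1010 regions of strong SOX2, more than 1 pair of whole numbers was within rounding. Only their means were used and they entered no test, which leaves 41393 regions tested. Medians per library before Dox and at 8 h, and ranges over library pairs, leave these 1010 regions out, while median log2 changes include them.

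SOX2 was recovered more strongly at 8 h over most GATA6 regions when read as RPM, with a log2 change above 0 in 31339 regions (73.9%). The median region had 0.490 and 0.531 RPM in the libraries before Dox, against 0.784 and 0.885 RPM at 8 h, so that both libraries at 8 h were above both before Dox. The share of all reads of a library that fell into the regions was 4.46% and 5.66% before Dox and 6.20% and 7.08% at 8 h. Over the 4 possible pairs of a library before Dox and a library at 8 h, the median log2 change ranged from 0.29 to 0.58, with an SD of 0.117. Between the libraries of 1 time the median log2 difference was 0.14 both before Dox and at 8 h. Spearman's rho across 41393 regions, a description of libraries that share regions and their widths, was 0.881 between the libraries before Dox, 0.906 between those at 8 h and 0.804 to 0.826 across times.

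Testing each region with limma on log2 RPM with a pseudocount of 0.118 RPM, 6846 regions (16.5%) were higher and 220 (0.531%) lower at 8 h at a Benjamini-Hochberg adjusted p below 0.05. Without adjustment, 11189 were higher and 774 lower. Taken relative to the median change of all regions, 2748 regions (6.64%) were higher and 800 (1.93%) were lower. On the log2(RPM + pseudocount) scale, 8382 of the 42403 regions (19.8%) were at least 2-fold higher and 298 (0.703%) at least 2-fold lower. Both libraries at 8 h were above both before Dox in 19190 of the tested regions (46.4%), and both were below in 3578 (8.64%). The test leans on the spread shared across regions, since an exact permutation of 2 libraries against 2 cannot go below p = 0.333. Leaving out either library before Dox left 0 regions called in either direction by limma, with 6879 higher and 960 lower unadjusted without the deeper and 8991 and 348 without the shallower. All 6846 regions kept their sign without either library, which their choice from these same libraries largely fixes. Subtracting the input RPM of the same time also left 0 calls by limma, with 10365 higher and 1007 lower unadjusted.

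The balance of higher and lower regions rests on the scaling. Centering each library on its own median gave 2391 higher and 2982 lower regions and a median log2 change of -0.20, and removing the GC trend of each library gave 2383 and 2604 regions and -0.18. Centering shifts the change of every region by the same amount, but it also alters the spread between the libraries of a time. All of the 2391 regions lay among the 6846. All 6846 kept a change above 0 under both, which under centering depends only on the size of that shift. RPM compares the regions with the rest of the genome, whereas the centered values compare regions with each other, and no spike-in is described that would set an absolute level. Levels below are therefore given in RPM, and counts relative to the median change stand beside those of the main classes.

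**Figure D1:**
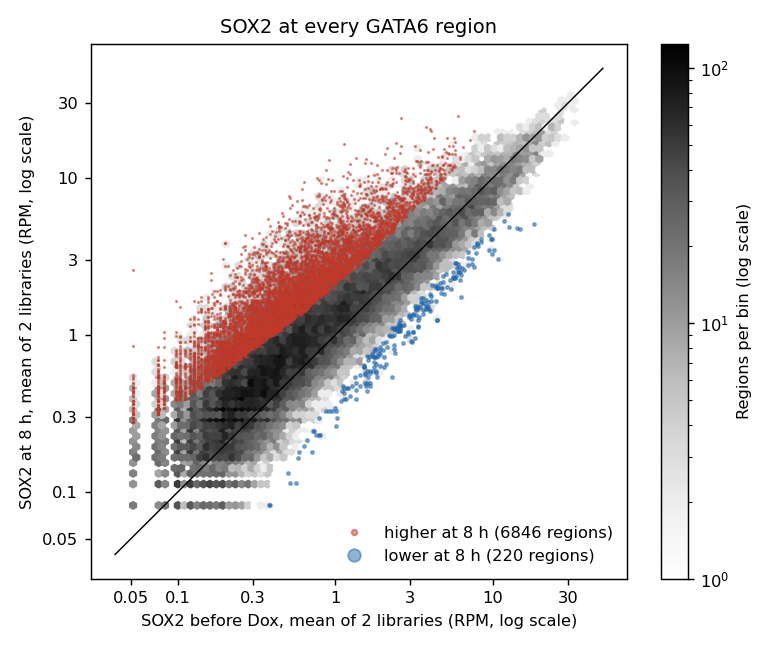
Mean SOX2 in RPM of the 2 libraries before Dox (x axis, log scale) and of the 2 libraries at 8 h (y axis, log scale) for 42403 GATA6 regions. Grey shading gives the number of regions per bin, red points are the 6846 regions called higher and blue points the 220 called lower by limma, and the line marks equal values: red points lie above the line, with a median of 0.481 RPM before Dox, and blue points lie below it, with a median of 2.65 RPM before Dox.

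The median of the regions called higher was 0.446 and 0.472 RPM in the libraries before Dox, close to the 0.490 and 0.531 RPM of all regions, and 1.63 and 1.77 RPM at 8 h. Regions called lower had medians of 2.65 and 2.71 RPM before Dox and 0.948 and 1.23 RPM at 8 h. These levels describe the calls, which were made from the same values. Of the regions called higher, 80.7% were closed in undifferentiated ES cells by the authors' accessibility classes, against 61.3% of all regions, and 0.20% were accessible. Of those called lower, 54.1% were accessible, against 7.43% of all regions, and 39.5% carried the promoter state, against 6.88%.

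The authors grouped the regions by k-means on GATA6 binding, without SOX2, into Early&Constant regions that recruit GATA6 at once and keep it, Transient regions that lose it, and Late regions that recruit it slowly. In Early&Constant regions the median SOX2 was 0.624 and 0.649 RPM before Dox and 1.31 and 1.38 RPM at 8 h. This is a median log2 change of 0.71, and 3674 of 11361 tested regions (32.3%) were higher and 10 lower, or 1748 and 62 relative to the median change of all regions. In Transient regions the medians were 0.802 and 0.944 RPM before Dox and 1.31 and 1.48 RPM at 8 h, a log2 change of 0.39, with 2796 of 15791 regions (17.7%) higher and 119 lower, or 979 and 466 relative to that median. Late regions had medians of 0.267 and 0.295 RPM before Dox and 0.327 and 0.393 RPM at 8 h. Their log2 change was 0.21, and 376 of 14241 regions (2.64%) were higher and 91 lower, or 21 and 272 relative to the median of all. The difference in median log2 change between Early&Constant and Late regions was 0.50 with an SD of 0.037 over the 4 library pairs, and it was positive in each of them. GATA6 itself had a median of 2.88 RPM at 8 h in Early&Constant, 2.26 in Transient and 0.406 in Late regions.

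Accessibility before Dox separated the response further. Closed regions had a median of 0.312 and 0.295 RPM before Dox and 0.523 and 0.590 RPM at 8 h, a log2 change of 0.55 that ranged from 0.49 to 0.65 over library pairs, and 5527 of 26002 (21.3%) were higher and 20 lower, or 2419 and 110 in relative terms. Moderately accessible regions had a change of 0.25, with 1305 of 12727 higher and 81 lower, or 327 and 321 in relative terms, and over library pairs it ran from 0.02 to 0.52. Tested accessible regions had 2.76 and 3.25 RPM before Dox and 2.29 and 3.05 RPM at 8 h. Over all 3152 accessible regions, the median of the library means went from 3.99 to 3.39 RPM. Their log2 change of -0.23 lay within the spread of the library pairs, which ran from -0.57 to 0.06, and 14 of 2664 were higher and 119 lower, or 2 and 369 in relative terms. Input chromatin changed in the same classes, with a median log2 change of -0.44 in accessible, -0.08 in moderate and 0.09 in closed regions, and its part in the SOX2 values was not tested. Within Early&Constant regions, the closed ones had a log2 change of 0.91 with 3058 of 7704 (39.7%) higher, against -0.05 in the accessible ones with 6 of 394 higher. Transient closed regions stood at 0.82 and Late closed regions at 0.25, so that closed regions differed among themselves by GATA6 class.

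Histone marks of ES cells, from which the authors drew chromatin states, ordered the regions in a like manner. Regions of the state named naive had medians of 0.312 and 0.295 RPM before Dox and 0.588 and 0.590 RPM at 8 h, and 2093 of 7625 (27.4%) were higher and 6 lower, or 1051 and 36 relative to the median change of all regions. Primed enhancers had a log2 change of 0.47, with 1421 of 6975 (20.4%) higher and 35 lower, or 551 and 129 in relative terms. Poised enhancers had one of 0.40, with 856 of 6135 (14.0%) higher and 23 lower, or 249 and 85. Tested active enhancers, where SOX2 was already at 2.27 and 2.89 RPM, had 2.68 and 3.25 RPM at 8 h. Over all 4730 active enhancers, the median of the library means went from 3.16 to 3.53 RPM. Their log2 change of 0.08 ran from -0.20 to 0.39 over library pairs, and 244 of 4140 (5.89%) were higher and 43 lower, a balance that turned to 49 higher and 179 lower in relative terms. Facultative heterochromatin stood at 0.50, with 1717 of 9472 higher and 5 lower, or 700 and 31 in relative terms, and constitutive heterochromatin at 0.39, with 483 of 4300 higher and 21 lower, or 143 and 69. In the promoter state the median went from 1.69 and 1.59 RPM to 1.31 and 1.77 RPM, which overlap, and 32 of 2746 (1.17%) were higher and 87 lower, or 5 and 271 in relative terms, while input changed by -0.57 on the log2 scale.

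**Figure D2:**
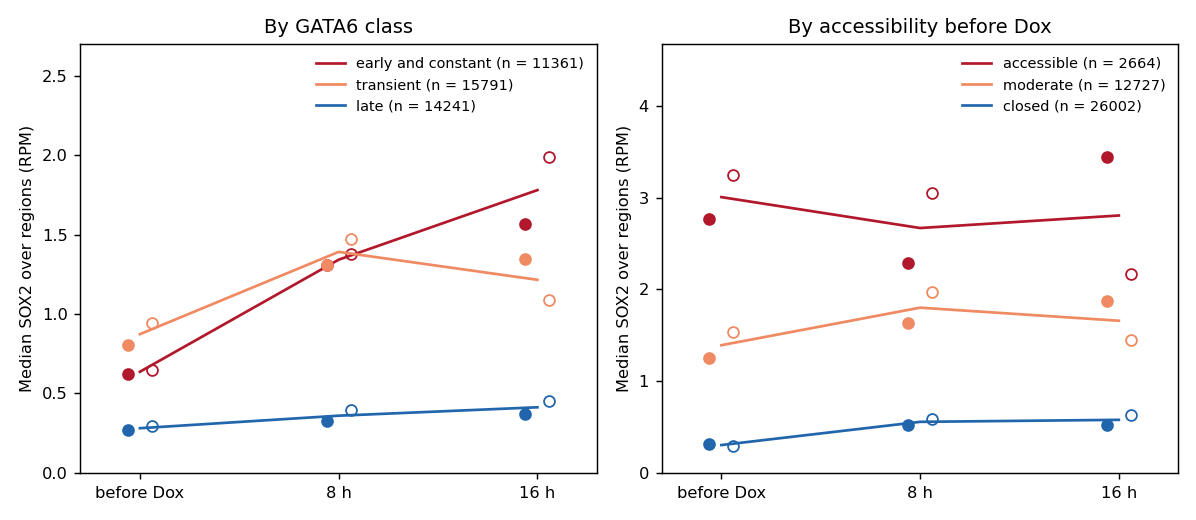
Median SOX2 in RPM (y axis) before Dox, at 8 h and at 16 h, by GATA6 class (left) and by accessibility before Dox (right). Medians before Dox and at 8 h are over the tested regions, whose number n is given. Those at 16 h are over all regions of a class, for example 3152 accessible regions against 2664 tested, so the sets differ. Filled and open points are the 2 libraries of a time and lines join their means: Early&Constant regions go from 0.624 and 0.649 RPM to 1.31 and 1.38 RPM at 8 h, Late regions reach 0.452 RPM at most, and the accessible regions show the widest gaps between libraries.

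Regions were also classed by the authors from peak calls of OCT4, SOX2 and ESRRB, the pluripotency transcription factors (PTFs), and since these calls used the same SOX2 libraries the classes are described only. Tested regions with PTFs before Dox had medians of 2.59 and 3.66 RPM before Dox and 3.72 and 4.23 RPM at 8 h. Over all 8841 such regions, the median of the library means went from 3.58 to 4.43 RPM. Their log2 change of 0.18 varied from -0.10 to 0.59 with the library pair, and 1622 of 7831 were higher and 80 lower, or 979 and 325 relative to the median change of all regions. Regions that gain PTFs ectopically after Dox had 0.580 and 0.590 RPM before and 1.05 and 1.08 RPM at 8 h, a change of 0.59, with 1786 of 7038 higher and 33 lower, or 721 and 100 in relative terms. Regions without PTFs had a change of 0.40, with 3438 of 26524 higher and 107 lower, or 1048 and 375. The PTF class hides a split by GATA6 class, since regions with PTFs before Dox had a change of 0.64 where GATA6 was Early&Constant, with 1211 of 2768 (43.75%) higher, but 0.00 where it was Transient, with 410 of 4815 (8.52%) higher and 66 lower. Relative to the median change these counts were 806 higher and 23 lower in the former but 173 and 270 in the latter. In the Transient ones the library pairs ran from -0.32 to 0.41.

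The response was graded with the amount of GATA6. Splitting regions into 5 equal groups by GATA6 at 8 h, the median log2 change of SOX2 went from 0.21 in the lowest group, below 0.456 RPM of GATA6, through 0.31, 0.44 and 0.52 to 0.70 in the highest, above 3.98 RPM. The share called higher went from 1.51% through 4.50%, 12.6% and 24.4% to 42.6%. OCT4 before Dox, from separate libraries, divided the groups again. In the group of highest GATA6, the median log2 change was 0.31 where OCT4 was in its highest group (4309 regions), 1.27 in the next (2423 regions), 1.71 in the middle one (672 regions) and 1.99 in the second lowest (109 regions). Where GATA6 was in its middle group, the change went from 0.97 at the lowest OCT4 to -0.32 at the highest. Regions with much GATA6 tend to have much OCT4, so opposite corners hold few of them, 10 and 5 regions, and those 2 cells are not read. Spearman's rho of the SOX2 change over 42403 regions was 0.334 with the GATA6 change, 0.278 with GATA6 at 8 h and -0.113 with OCT4 before Dox. These are descriptions, since all regions come from the same libraries and all values grow with region width.

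**Figure D3:**
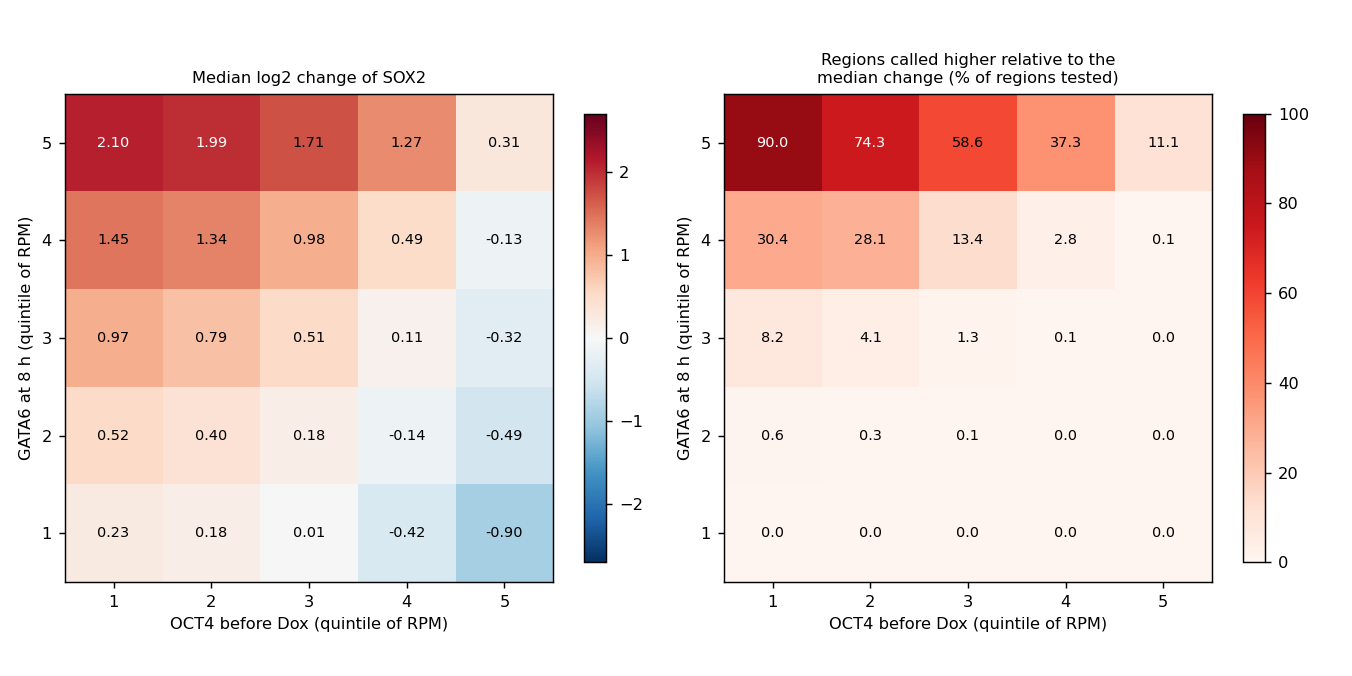
Regions split by GATA6 at 8 h (y axis, quintile of RPM) and OCT4 before Dox (x axis, quintile of RPM). Left, median log2 change of SOX2 from before Dox to 8 h; right, percent of tested regions called higher by limma relative to the median change: in the top GATA6 row the change goes from 1.99 in the second OCT4 quintile to 0.31 in the fifth, and the share called from 74.3% to 11.1%.

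Motif scores come from the sequence alone and used no SOX2 value. Regions with a high GATA6 motif score had a median log2 change of 0.66, with 3130 of 11132 (28.1%) higher and 9 lower, or 1445 and 80 relative to the median change of all regions, and the median changes were 0.45 and 0.23 for the mid and low scores. Without a GATA6 match the change was 0.09, with 199 of 4261 (4.67%) higher and 77 lower, a balance that turned to 33 higher and 228 lower in relative terms. Regions with a high OCT:SOX score had a change of 0.25, against 0.33 for regions without a match, a difference of -0.07 with an SD of 0.210 over library pairs, while mid and low scores stood at 0.46 and 0.44. The share called higher was 20.0% (497 of 2486) for high scores, 23.3% for mid and 18.3% for low, against 9.69% without a match, and relative to the median change it was 8.77% for high scores against 2.76% without a match. Regions with a high OCT:SOX score also began at a higher level, 1.52 and 2.12 RPM before Dox against 0.357 and 0.354 RPM. Where both scores were high, the change was 0.64 and 213 of 620 regions (34.4%) were called higher, the largest share among the combinations of the 2 scores compared. The letters GATAA occurred on either strand in 96.5% of the regions called higher and 54.1% of those called lower, against 86.2% of all regions, and the letters TTGTNATGC in 3.21%, 5.91% and 2.89%. Region width bears on such shares, as the median width was 700, 459 and 525 bp.

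Single regions show how far SOX2 could move. Among the 11816 regions with at least 2 RPM before Dox or at 8 h, the 6 with the largest rises were all closed before Dox and all had more GATA6 at 8 h. The most SOX2 appeared in an intron of Adora1, which encodes an adenosine receptor, at chr1:134225648-134227606, 8452 bp from the gene start. SOX2 was 1.34 and 0.944 RPM before Dox and 15.2 and 17.8 RPM at 8 h, a 14.5-fold rise with a log2 change of 3.74 ± 0.36 (SE, limma adjusted p = 1.9e-09). GATA6 at the same place went from 0.980 to 54.5 RPM and OCT4 from 5.02 to 10.7 RPM, while input was 1.80 RPM at both times. At chr11:49780658-49782731, 12165 bp from the start of Gfpt2, an enzyme of hexosamine synthesis, SOX2 went from 0.936 and 0.885 RPM to 12.9 and 13.1 RPM. In an intron of Cpn1, the catalytic subunit of carboxypeptidase N, SOX2 went from 0.669 and 0.590 RPM to 10.8 and 8.06 RPM, and OCT4 there from 3.70 to 25.8 RPM.

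The other 3 of the largest rises began near the detection limit. At chrX:52176908-52177750, 11996 bp from the start of Gpc4, a glypican of the cell surface, SOX2 was 0.223 and 0.177 RPM before Dox and 3.66 and 4.03 RPM at 8 h. At chr19:21337015-21337942, 65192 bp from the start of Zfand5, a zinc finger protein, it went from 0.223 and 0.177 RPM to 3.92 and 3.74 RPM, and OCT4 from 0.537 to 7.21 RPM. At chr4:75844178-75845613, 566687 bp from the nearest gene start, that of the mitochondrial protein gene Dmac1, both libraries before Dox were at their lowest value, which is 1 read. The libraries at 8 h were at 2.55 and 2.66 RPM, at least 16.7-fold higher when 3 reads per library are taken as the limit of detection. This is the region of the GATAA repeat printed above, and its input went from 0.468 to 0.758 RPM. Both libraries before Dox were at 1 read in 201 regions, 50 of which were called higher, so fitted changes of such regions depend on the pseudocount. The first region past the 6, chrX:47975157-47978056, had 0.867 RPM before Dox and 11.3 RPM at 8 h.

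The 6 largest falls were smaller, from 3.53-fold to 4.25-fold. At the promoter of Creb3l2, a transcription factor of the endoplasmic reticulum stress response, at chr6:37442046-37442590, SOX2 was 2.05 and 2.54 RPM before Dox and 0.392 and 0.688 RPM at 8 h. The log2 change was -1.90 ± 0.38 (SE, limma adjusted p = 0.000258), and input went from 1.67 to 0.847 RPM in the same region. The strongest SOX2 site among the falls, chr8:64366348-64367208, lies 160467 bp from Tll1, a metalloprotease of the tolloid family, and went from 17.6 and 18.9 RPM to 4.90 and 5.31 RPM, while OCT4 went from 11.3 to 4.18 RPM and input from 1.28 to 0.622 RPM. At the promoter of Dact3, a regulator of Wnt signaling, SOX2 went from 4.68 and 4.19 RPM to 1.11 and 1.38 RPM, and input from 2.12 to 0.50 RPM. In an intron of Myo1f, an unconventional myosin, the libraries before Dox differed among themselves, at 7.53 and 14.0 RPM, but both were above 3.07 and 3.05 RPM at 8 h. The region 67067 bp from Ccn6, a secreted matricellular protein, went from 3.79 and 5.08 RPM to 0.915 and 1.57 RPM, and the intron of Gm11077 from 4.01 and 8.50 RPM to 1.44 and 2.07 RPM. Input went from 0.249 to 0.478 RPM at Gm11077, the opposite direction to SOX2. The first region past these 6, chr10:80826244-80826593, went from 2.69 to 0.884 RPM.

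**Figure D4:**
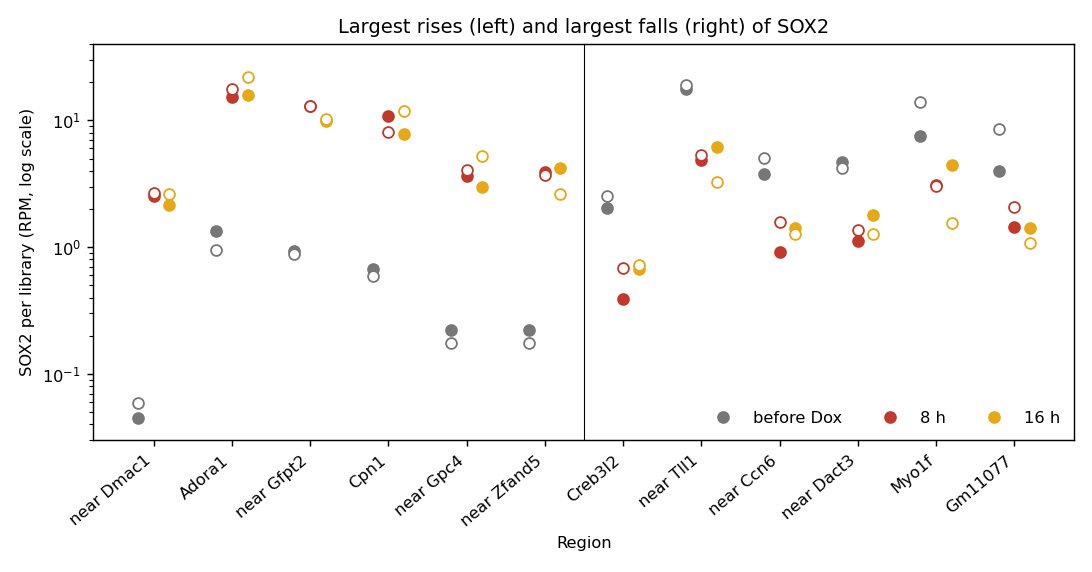
SOX2 in RPM (y axis, log scale) in each library of the 6 regions with the largest rises (left) and the 6 with the largest falls (right), named on the x axis by the gene they lie in or nearest to. Filled and open points are the 2 libraries of a time, grey before Dox, red at 8 h and yellow at 16 h: red and grey points are apart in every region, as the choice of the regions from these values requires. The means at 16 h lie nearer those of 8 h than those before Dox in all 12, but this comparison shares the values before Dox with the choice.

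Among regulators of pluripotency, 25 genes had 132 regions in the gene body or within 20 kb of it, of which 115 could be tested. SOX2 was higher in 14 (12.2%), against the 16.5% over all regions, and lower in 1, and the median log2 change was 0.18 against 0.39 over all regions. For each gene the region with the most SOX2 was taken. At chr14:99330342-99332644, near Klf5, a Krüppel-like factor of self-renewal, SOX2 went from 3.17 and 2.60 RPM to 12.02 and 11.1 RPM, a log2 change of 1.97 ± 0.37 (SE, limma adjusted p = 0.000108). Of the strongest regions that could be tested, this was the only one called. The region 4047 bp from the Sox2 start had 4.68 and 10.2 RPM before Dox and 6.47 and 6.69 RPM at 8 h, so the libraries before Dox spanned those at 8 h. Near Zfp42, a marker of naive ES cells on chromosome 8, the values were 7.85 and 11.2 RPM before Dox and 5.75 and 8.06 RPM at 8 h, which overlap. At Klf4 they were 5.30 and 4.19 RPM and 3.46 and 4.52 RPM. Strong sites that could only be given as means had 12.6 and 9.85 RPM near Nanog, 19.3 and 13.1 RPM at Esrrb, 32.6 and 22.9 RPM near Klf2 on chromosome 8, 9.78 and 12.4 RPM near Pou5f1 and 20.7 and 25.6 RPM at Sall4, before Dox and at 8 h.

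The libraries at 8 h disagreed at the promoter of Nr0b1, a nuclear receptor of the ES cell network. There, SOX2 was 2.85 and 3.89 RPM before Dox but 3.07 and 13.4 RPM in the 2 libraries at 8 h. The log2 change of 0.93 ± 0.42 (SE) did not pass (limma adjusted p = 0.132).

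Genes of the PrE list had 291 regions, 287 of them tested. SOX2 was higher in 57 (19.9%) and lower in 1, with a median log2 change of 0.49. Without Fgfr2, whose annotated span of 2961 kb holds 91 of the regions, 34 of 198 (17.2%) were higher and 1 lower, and the median change was 0.37, so that the list was near the share over all regions. At chr5:75145915-75148017, 5625 bp from the start of Pdgfra, a receptor that marks PrE, SOX2 was 1.29 and 1.53 RPM before Dox and 9.35 and 10.1 RPM at 8 h. The log2 change was 2.69 ± 0.36 (SE, limma adjusted p = 3.4e-07). In the Gata4 intron shown above, SOX2 went from 0.936 and 0.826 RPM to 4.18 and 5.90 RPM, a log2 change of 2.35 ± 0.36, and in an intron of Dab2, an endocytic adaptor of endoderm, from 0.580 and 0.295 RPM to 2.55 and 3.05 RPM. Near Amn, a partner of the endocytic receptor cubilin, it went from 1.16 and 1.24 RPM to 4.57 and 6.49 RPM, and 22680 bp from Sox17 from 0.892 and 0.590 RPM to 2.48 and 2.26 RPM. At the Gata6 promoter it went from 2.76 and 1.65 RPM to 4.12 and 5.02 RPM, and in an intron shared by the ranges of Col4a1 and Col4a2, basement membrane collagens on chromosome 8, from 4.06 and 5.25 RPM to 8.43 and 11.7 RPM, with limma adjusted p of 0.0382 and 0.0394. These regions were all closed or moderately accessible before Dox, classes that hold 61.3% and 31.2% of all regions.

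Not every PrE locus did so. The strongest region of Cubn had 7.80 and 10.9 RPM before Dox and 7.25 and 9.74 RPM at 8 h, and that within 20 kb of Hnf4a had 2.41 and 2.60 RPM and 1.57 and 1.77 RPM, and neither passed the test. Of 12 genes of other lineages, 7 had a region. SOX2 was higher in 2 of their 17 tested regions and lower in 1, and the clearest was 19073 bp from Gsc, an organizer homeobox gene, with 0.401 and 0.472 RPM before Dox and 4.44 and 4.72 RPM at 8 h. Of 10 control genes of general metabolism, 9 had a region, and SOX2 was higher in 2 and lower in 1 of their 30 tested regions (6.67% higher).

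The other antibodies show what else moved at these places. ESRRB at 8 h and GATA6 before Dox each rest on 1 library. The ESRRB and SOX17 values before Dox were separated from deposited means taken as those of 5 libraries. Over all regions, the median log2 change was 0.16 for OCT4, 0.34 for ESRRB, 1.5 for GATA6, -0.02 for SOX17 and 0.005 for input. At the regions called higher for SOX2, the median log2 change was 0.86 for OCT4, 0.88 for ESRRB, 2.69 for GATA6, -0.02 for SOX17 and 0.14 for input. At the regions called lower, it was -0.81 for OCT4, -0.57 for ESRRB, -0.03 for SOX17 and -0.63 for input. Input therefore moved in the direction of SOX2 in both, by less than SOX2, and its part was not tested. OCT4, separated into libraries in the same manner, was higher in 1576 of 42276 regions (3.73%) and lower in 68 (0.161%). Of these 1576 regions, 1242 (78.8%) were also called higher for SOX2, which is 18.1% of the SOX2 regions. Among the 6846 SOX2 regions, 6351 (92.8%) had an OCT4 change above 0, against 61.3% of all regions. The test of the difference between the changes of SOX2 and OCT4 called 0 regions in which SOX2 rose more and 1 in which OCT4 did (0.00242% of 41391), with 2309 and 189 at an unadjusted p below 0.05. Spearman's rho between the changes of SOX2 and OCT4 was 0.537 over 42403 regions, a description over regions that share their width and composition, and it was 0.0925 for SOX17 and 0.164 for input.

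At 16 h, 7214 regions were higher and 724 lower than before Dox by limma, and the direct test of 16 h against 8 h called 0 regions, with 2534 higher and 2277 lower at an unadjusted p below 0.05. At the regions called higher at 8 h, the median was 0.481 RPM before Dox, 1.72 RPM at 8 h, 1.68 RPM at 16 h, 1.40 RPM at day 1, 1.22 RPM at day 2, 0.863 RPM at day 4 and 0.562 RPM in extra-embryonic endoderm (XEN) cells, the stem cells of the PrE lineage. The last 4 values are the authors' means, without a spread. The first 2 are the values by which the regions were called, so the peak at 8 h is partly fixed by that choice. In Early&Constant regions the median continued to 1.81 RPM at 16 h and was 1.80 RPM at day 4. In Transient regions it went from 1.44 RPM at 8 h to 1.26 RPM at 16 h and 0.458 RPM at day 4. Late regions went the other way, from 0.360 RPM at 8 h to 0.405 RPM at 16 h and 0.964 RPM at day 4. Of the named regions, Adora1 still had 14.8 RPM at day 4, whereas Zfand5 had 0.564 RPM.

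Libraries were not alike over the genome. On chromosome 8, the mean RPM of the regions was 1.31 times that of the median autosome in the deeper SOX2 library before Dox and 0.880 times in the shallower, against 0.919 and 0.923 times at 8 h. The other autosomes lay between 0.837 and 1.15 times in these 4 libraries. 1 library each of SOX2 at 16 h, of OCT4 before Dox and at 16 h, and of input before Dox and at 16 h also stood high on this chromosome, at 1.28 to 1.43 times. The median log2 change of SOX2 on chromosome 8 was 0.22, lower than on any other chromosome, where it ran from 0.30 to 0.51. Against the shallower library alone it was 0.39 and against the deeper alone 0.11. Without chromosome 8, 6683 regions were higher and 195 lower. The regions described for Tll1, Zfp42, Klf2, Col4a1 and Col4a2 lie on this chromosome, and the part of these library values in theirs was not tested. At 8 h no library of SOX2, OCT4 or input stood high.

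**Figure D5:**
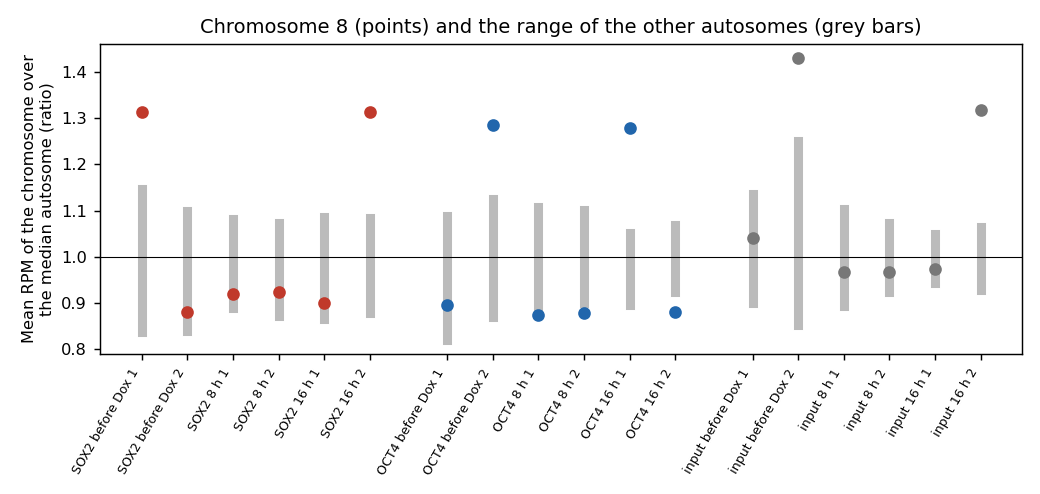
Mean RPM of the GATA6 regions of chromosome 8 over that of the median autosome (y axis, ratio) in each library of SOX2 (red), OCT4 (blue) and input (grey), named on the x axis by time and library number. Grey bars span the other autosomes: the deeper SOX2 library before Dox stands at 1.31 and the shallower at 0.880, and both libraries at 8 h lie within the range of the other autosomes.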

How the data were processed

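Reads were trimmed with cutadapt, aligned to mm10 with Bowtie2 and freed of duplicates by unique molecular identifiers by the authors, who counted them on GATA6 regions, scaled them to RPM and deposited means over libraries as 1 RPM column per condition. The authors also deposited FIMO motif scores (a score per best match), positions and classes. Their outcome of an Oct4 siRNA comparison was not used, nor were 14 columns of other libraries. Sample titles gave the groups. The description field of many samples names a table or column of another antibody or time than the title, and the title was used throughout.

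The deposited means were split into libraries as sums of whole multiples of 1 step each, with depths fitted by least squares. The whole numbers start at 1 in every library, so 1 read seems to have been added per region. A split counted as settled where 1 pair lay within the rounding of the table. Of 3 labelled libraries before Dox, 2 could be separated. Libraries carry no replicate number and are numbered by depth. The study's methods describe 2 independent chromatin preparations for most conditions, without saying whether they came from separate cultures, so p-values measure the spread between these libraries.

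The planned analysis foresaw no test, as the values were thought to be pooled, and limma 3.58.1 (R 4.3.3, trend on, 5% false discovery rate) was used once libraries were separated. The pseudocount was the 5th percentile of the SOX2 values. Depths of 10.2 to 22.4 M reads put a median of 9 to 12 reads on a region, and counting error at that depth limits single regions. Counts were simulated for this comparison over 42403 regions, with a dispersion of 0.01, the lowest value the setting allowed. No difference between libraries on chromosome 8, with GC or over all regions was put in. In these data, 50 of 50 regions raised 4-fold, 23 of 50 raised 2-fold, 32 of 50 lowered 4-fold and 10 of 50 lowered 2-fold were called, with 4 false calls. All changed regions were drawn from those above a set SOX2 level before Dox, close to the median of all regions. Regions of less SOX2 are not covered by these rates. The real libraries before Dox differed by more on chromosome 8 and at some strong sites, so these rates need not hold for them. Genes were taken from GENCODE M21, promoters being within 500 bp of a start. Python 3.11.15, numpy 2.4.6, pandas 2.3.3 and pysam 0.24.0 were used.

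The named regions are the 6 largest rises and falls among those of at least 2 RPM, and of each listed gene the region with the most SOX2, where not all are described. The regions, lists and rules were chosen with earlier results of these data known. Alternatives were another pseudocount, a filter, input subtraction, signal per kb, means, other centerings, the removal of GC trends, of 1 read, of chromosome 8 and of single libraries, the limma trend left out, the 16 h libraries added, unsettled regions included, and the columns as deposited. Sequence was read from mm10.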

Additional observations from a re-analysis of the deposited data

Results flagged for a closer look

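A single region differed between SOX2 and OCT4 in its change from before Dox to 8 h by the limma test of the difference itself. At the promoter of Amdhd2, an enzyme of amino sugar metabolism, at chr17:24163613-24163862, SOX2 was 1.34 and 1.36 RPM before Dox and 2.09 and 1.38 RPM at 8 h. OCT4 went from 0.447 and 0.641 RPM to 9.29 and 10.1 RPM, and input went from 1.505 to 0.25 RPM. The SOX2 change minus the OCT4 change was -3.59 on the log2 scale (limma adjusted p = 0.0014), the only call among 41391 regions.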

How the results depend on the processing

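In all, 111 values under an alternative kept their direction and stayed within 1.5 times the count or 1 SD of the library pairs, 64 moved further and 7 changed sign. The values are, in this order where they apply, the median log2 change over all regions, regions 2-fold higher and 2-fold lower, regions called higher and lower by limma, the difference of ectopic PTF from PTF before Dox, of Early&Constant from Late and of high from no OCT:SOX match in median log2 change, rho with the OCT4 change, and the median log2 change at 16 h. As reported they were 0.394, 8382, 298, 6846, 220, 0.413, 0.501, -0.07, 0.537 and 0.465. A pseudocount 10 times larger gave 0.146 over all regions, 1681 and 27 regions past 2-fold, 0.117 by PTF class, 0.261 by GATA6 class, 0.047 by OCT:SOX match and 0.173 at 16 h. One 10 times smaller gave 684 regions 2-fold lower, 0.542 by GATA6 class and 0.572 at 16 h. In regions of at least 1 RPM, 5526 were 2-fold higher, and the values were 0.797 by GATA6 class, 0.7295 for rho and 0.316 at 16 h. With input subtracted they were 0.562, 15036, 1163, 0 and 0 called, 0.796, 1.005, 0.411 for rho and 0.280 at 16 h. Values per kb gave 0.449 by GATA6 class, and means over regions gave 0.588 by GATA6 class and 0.032 by OCT:SOX match.

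Other alternatives were chosen after seeing the data. Relative to the median change of all regions, which was planned, the change was 0 by construction, with 4099 and 1636 regions past 2-fold and 2748 and 800 called. Relative to Late regions it was 0.183, with 795 regions 2-fold lower and 4208 and 409 called. Centering each library gave -0.20, 2714 and 3606 past 2-fold and 2391 and 2982 called. Removing GC trends gave -0.18, 2722 and 3249 past 2-fold and 2383 and 2604 called. With 1 read taken off, 733 regions were 2-fold lower and the GATA6 classes differed by 0.600. With the 16 h libraries in the fit, 92 regions were called lower. The columns as deposited gave 0.074, 5 and 52 past 2-fold, -0.091 by PTF class, 0.053 by GATA6 class, 0.025 by OCT:SOX match, 0.432 for rho and 0.149 at 16 h, and this column before Dox holds the later libraries by construction. The cause of the other differences was not tested.

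Leaving out each of the 4 libraries in turn gave 0 to 5140 regions called higher and 0 to 138 called lower, with 0 of both without either library before Dox. The other ranges were 0.328 to 0.475 over all regions, 8347 to 10367 and 422 to 801 past 2-fold, 0.226 to 0.571 by PTF class, 0.486 to 0.549 by GATA6 class, -0.21 to 0.095 by OCT:SOX match, and 0.446 to 0.545 for rho. The value at 16 h was 0.456 to 0.570 without either library before Dox, and 16 h libraries were not left out. The OCT:SOX difference turned positive without the shallower library before Dox. Without it or another library, the lone library is assumed to vary like the pair of the other time. No paired analysis was possible because the separated libraries carry no replicate number. The values of chromosome 8 set 1 library of each of SOX2, OCT4 and input apart before Dox but none at 8 h, so they pair no library at 8 h, and the test of SOX2 minus OCT4 and the input subtraction did not use them. Depth limits regions of few reads, where 3 reads per library amount to 0.155 RPM before Dox.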
